A study of Homo sapiens with 15 samples.

Results

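The 8 genes described here encode NFE2L3, its cap'n'collar relatives NFE2L1, NFE2L2 and BACH1, the inhibitor KEAP1, and the small MAF proteins MAFF, MAFG and MAFK. They were found by gene symbol among the 59608 genes of the deposited expression table, and each symbol matched 1 gene. NFE2L3 was picked for its strong fall on these same values, so its levels and the differences between doses are given as a description, without a test. The other 7 genes were taken as family members or partners.

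The cells were MDA-MB-231, an established human triple-negative breast cancer line, grown in 2D on dishes. Each dish received ZJ-101, a laboratory-made relative of superstolide A, a compound from a marine sponge, or its vehicle for 6 h. The groups were vehicle at 0.1% DMSO and ZJ-101 at 0.5, 5, 50 and 500 nM, with 3 dishes in each of the 5 groups and 15 poly(A)-selected RNA libraries in all. All groups thus shared 1 cell line, 1 culture format and 1 time, and p-values below measure the spread between dishes of this line.

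Cap'n'collar (CNC) factors are basic leucine zipper (bZIP) transcription factors that bind DNA as pairs with a small MAF protein, at antioxidant response elements. NFE2L1 (NRF1) and NFE2L3 (NRF3) are made as proteins anchored in the endoplasmic reticulum (ER) membrane and are released by processing enzymes, and NFE2L1 is known for driving proteasome genes. NFE2L2 (NRF2) is cytosolic and is handed to the proteasome by KEAP1 until oxidants or electrophiles act on KEAP1, while BACH1 represses many of the same antioxidant genes and the small MAFs carry a DNA-binding domain but no activation domain.

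The promoters of NFE2L3 and NFE2L1 are shown because these were the members with the lowest RNA levels relative to DMSO at 500 nM. The stretches are the bases before the annotated gene starts, from RefSeq promoter windows on GRCh38.p14, both on the plus strand: chr7:26151948-26152197 for NFE2L3 and chr17:48048109-48048328 for NFE2L1. Capitals mark GC boxes (GGGCGG) and CCAAT boxes (CCAAT) on either strand.
NFE2L3: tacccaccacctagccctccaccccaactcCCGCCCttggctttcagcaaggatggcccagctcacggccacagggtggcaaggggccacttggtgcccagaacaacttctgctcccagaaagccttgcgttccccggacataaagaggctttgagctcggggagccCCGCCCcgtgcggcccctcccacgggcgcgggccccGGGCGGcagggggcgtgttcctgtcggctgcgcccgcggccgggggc
NFE2L1: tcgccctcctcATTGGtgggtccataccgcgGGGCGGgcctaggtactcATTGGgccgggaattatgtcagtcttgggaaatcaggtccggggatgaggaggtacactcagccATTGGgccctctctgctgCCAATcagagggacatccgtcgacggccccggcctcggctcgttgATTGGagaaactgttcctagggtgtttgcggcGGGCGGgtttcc
The NFE2L3 stretch of 250 bases held 3 GC boxes and 0 CCAAT boxes, at a GC content of 70.8%. The NFE2L1 stretch of 220 bases held 2 GC boxes and 5 CCAAT boxes, at a GC content of 61.4%, and no match overlapped another in either stretch. The full windows of 300 bases held 5 GC boxes and 0 CCAAT boxes for NFE2L3, and 3 and 5 for NFE2L1. A second NFE2L1 window, chr17:48048531-48048830, held 2 GC boxes and 0 CCAAT boxes. Among all 35116 windows of 300 bases, 45% held a GC box and 34.6% a CCAAT box. The core of the antioxidant response element (TGACNNNGC, either strand) was in 13.3% of all windows and in 2 of the 13 windows found for 7 of the members, 1 window each of KEAP1 and MAFF. MAFK had no window in the table. These motifs were chosen after the expression values had been seen, and a match describes letters, not binding.

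The expression values were whole reads per gene divided by a size factor for each library, called normalized counts here. Depth ranged from 12415519 to 15284762 reads on genes, with a median of 13320354. The 3 libraries of a group differed from each other by more than counting noise, and replicate 2 at 0.5 nM stood furthest from its group. The cell line label was checked against markers. The mesenchymal markers VIM, CD44, AXL, CAV1 and EGFR averaged between 4641 and 14336 normalized counts in DMSO, whereas ESR1, the estrogen receptor of luminal cells, was at 0 in DMSO and at most 4.30 in any library. The 5 luminal markers summed to 255 to 391 per library and the 4 leukocyte markers to 9.17 to 30.8, with CD3E at 0 in all 15 libraries. The leukocyte sum was lower at 500 nM (9.17 to 15.2) than in DMSO (27.4 to 30.8), through CD14. The luminal sum was also lower at 500 nM (313.9 to 349.7) than in DMSO (374.3 to 386.5). It was lowest at 0.5 nM (255 to 309) and 5 nM (281 to 306). Among luminal markers, CDH1 averaged 195.8 in DMSO, 113.1 at 0.5 nM and 134.6 at 500 nM. GATA3 averaged 143.6 in DMSO and 156.5 at 500 nM. The mesenchymal sum ranged from 50785 to 54864 over all libraries. Within that sum, EGFR rose by 0.70 and AXL by 0.22 on the log2 scale at 500 nM, and CD44 fell by 0.38 (adjusted p = 1.7e-04, 5.9e-04 and 1.4e-06 in limma). The part of other cells in the results below was not tested. In bulk RNA, fewer cells of a type and less RNA per cell cannot be told apart.

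The mean NFE2L3 RNA level was lower at each higher dose of ZJ-101. Its gene lies at chr7:26152198-26187137 on the plus strand of GRCh38 (ENSG00000050344.9). Normalized counts in DMSO were 3159.7, 3253 and 3117 in replicates 1 to 3. They were 3027, 2860.3 and 3069 at 0.5 nM and 2767, 2796 and 3045 at 5 nM. Both low-dose groups thus lay just under the DMSO libraries, without overlap, and they overlapped each other. NFE2L3 was picked for its fall from these same DMSO libraries, so this separation cannot show a low-dose shift. Here and below, the share of all genes whose libraries separate from DMSO was not counted. At 50 nM the 3 libraries read 1743, 1973 and 1705, and at 500 nM 898, 823 and 849.6. Every library at 50 nM lay below every library at 5 nM, and every library at 500 nM lay below every library at 50 nM. Group means were 3177 ± 69.9 in DMSO, 2985 ± 110.3 at 0.5 nM, 2869 ± 153 at 5 nM, 1807 ± 145 at 50 nM and 857 ± 37.8 at 500 nM (SD, n = 3).

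Relative to DMSO, NFE2L3 differed by -0.09, -0.15, -0.82 and -1.89 at 0.5, 5, 50 and 500 nM. These are differences of mean log2(normalized count + 1), where the added 1 makes the change of weakly expressed genes look smaller than it was. At 500 nM the level was 3.71-fold lower than in DMSO, and 43.2% of that log2 difference was already present at 50 nM. Between neighboring doses its log2 difference was -0.06 for 5 against 0.5 nM, -0.67 for 50 against 5 nM and -1.07 for 500 against 50 nM.

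**Figure D1:**
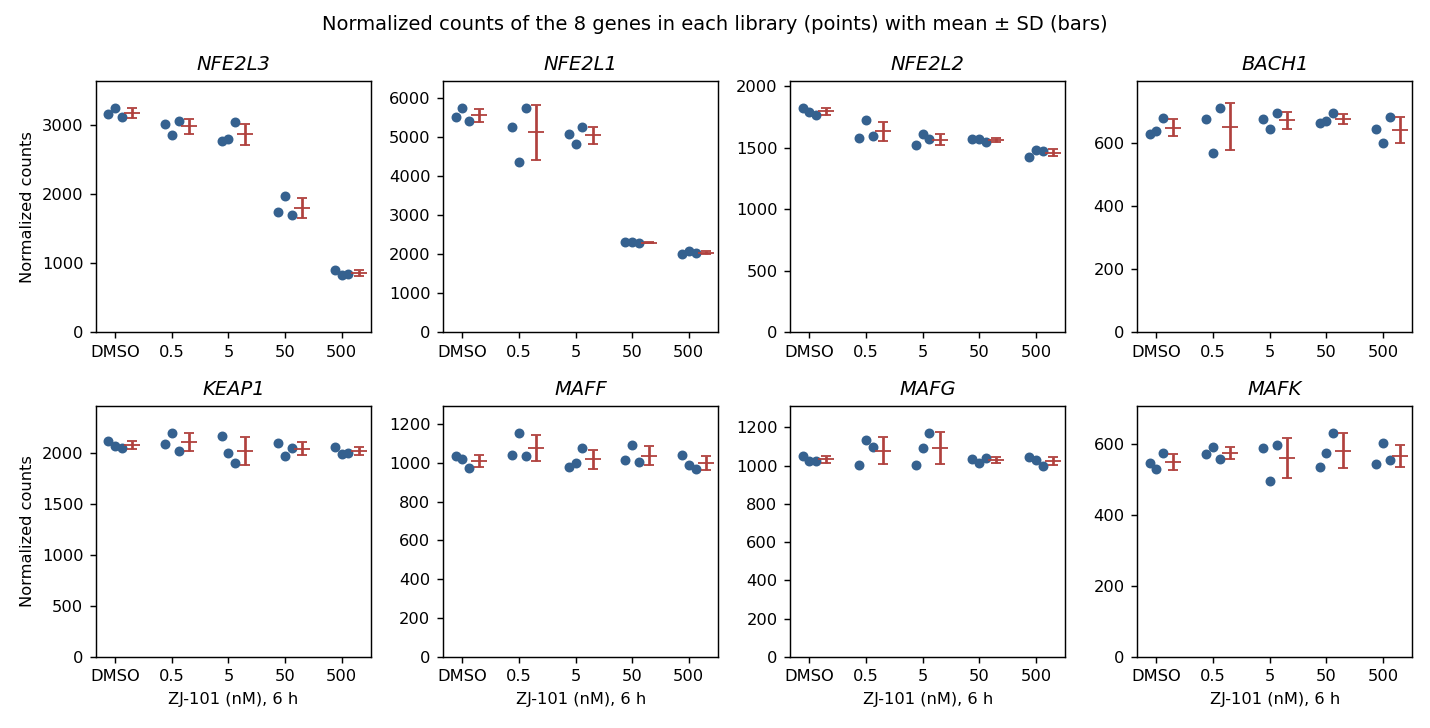
Normalized counts (vertical axis, from 0) against the dose of ZJ-101 at 6 h (horizontal axis) for the 8 genes. Points are the 3 libraries of each group in the order of replicates 1 to 3, and bars give the mean ± SD. NFE2L3 goes down at 50 and again at 500 nM, NFE2L1 goes down at 50 nM, NFE2L2 lies slightly below DMSO at each dose, and the other 5 genes stay near their DMSO level.

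Reads of NFE2L3 had possible neighbors in the counting. Of its annotated exon bases, 1207 (28.1%) also belong to exons of HNRNPA2B1 on the opposite strand, a gene for an RNA-binding protein. The strand setting of the read counting is not given in the sources used here, so reads from the shared bases cannot be told apart. HNRNPA2B1 read 16753 ± 229 in DMSO and 17489.7 ± 364 at 500 nM (SD, n = 3), a log2 difference of 0.06 (SE 0.040, limma adjusted p = 0.33). The processed pseudogene NFE2L3P1 on chromosome 18 (59969438 to 59971396) aligned to 1952 bases, or 52.2%, of the NFE2L3 transcript at 96.3% identity. It held 1.02 to 11.3 normalized counts per library, against at least 823 for NFE2L3 in every library.

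NFE2L1 RNA fell between 5 and 50 nM and stayed low. This gene, for the ER-anchored factor NRF1, lies at chr17:48048329-48061545 (ENSG00000082641.16). The DMSO libraries read 5511, 5752 and 5416. Those at 0.5 nM read 5275, 4366 and 5751, and those at 5 nM read 5081, 4827 and 5257. The 0.5 nM libraries overlapped DMSO, with replicate 2 the lowest. The 5 nM libraries lay below DMSO without overlap, a separation whose share among all genes was not counted. At 50 nM the values were 2302, 2307 and 2277, and at 500 nM 2015, 2080.4 and 2029.6. The 50 nM libraries had an SD of 16.01 counts around a mean of 2295, and lay far below all libraries at lower doses, and the 500 nM libraries lay a little below them.

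In limma, with adjustment over the 13561 genes tested, NFE2L1 was called at 50 nM, where it fell by 1.28 (SE 0.068, adjusted p = 4.7e-10), and at 500 nM, where it fell by 1.44 (SE 0.068, adjusted p = 3.8e-11), or 2.72-fold. Its differences of -0.12 at 0.5 nM (95% interval -0.27 to 0.02) and -0.14 at 5 nM (95% interval -0.28 to 0.01) both had an adjusted p of 0.42 in limma, and with 1 library left out the former lay between -0.21 and -0.01. From 5 to 50 nM it fell by 1.14 (adjusted p = 7.8e-09 in limma). The difference from 50 to 500 nM was -0.17 (95% interval -0.31 to -0.03, adjusted p = 0.29 in limma), so 88.3% of the log2 difference at 500 nM was present at 50 nM.

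NFE2L2, the gene for the KEAP1-controlled factor NRF2, had a smaller difference from DMSO. It lies on chromosome 2 from 177218667 to 177392756 on the minus strand (ENSG00000116044.17). Normalized counts were 1822, 1791 and 1767 in DMSO. They were 1581, 1723 and 1596 at 0.5 nM, and 1518, 1608 and 1569.9 at 5 nM. At 50 nM they were 1569.8, 1571 and 1547, and at 500 nM 1425, 1479.7 and 1473. All 12 treated libraries lay below all 3 DMSO libraries, and the 500 nM libraries lay lowest. The share of all genes that separate in this way was not counted, and every dose was set against the same 3 DMSO libraries. The log2 differences were -0.14 at 0.5 nM (adjusted p = 0.15), -0.20 at 5 nM (adjusted p = 0.020), -0.20 at 50 nM (adjusted p = 0.0069) and -0.30 at 500 nM (adjusted p = 6.1e-05) in limma, with an SE of 0.043 each. At 500 nM it thus fell by 18.6%. The call at 5 nM was lost without any 1 of the 3 DMSO libraries or without 5 nM replicate 1 or 3, with adjusted p between 0.058 and 0.11 in limma. No step between neighboring doses was called, the lowest being -0.10 from 50 to 500 nM (95% interval -0.19 to -0.01, limma adjusted p = 0.33). Of the NFE2L2 exon bases, 23.4% overlap HNRNPA3 on the opposite strand, whose log2 difference at 500 nM was 0.03 (limma adjusted p = 0.69).

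**Figure D2:**
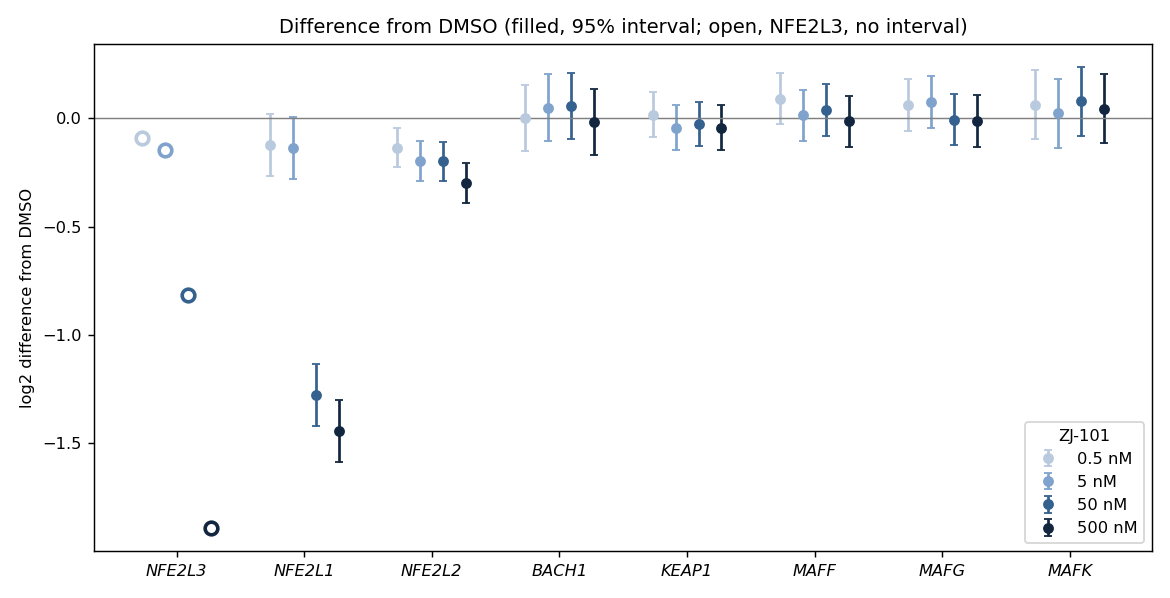
Difference from DMSO in mean log2(normalized count + 1) (vertical axis) for each gene (horizontal axis) at 0.5, 5, 50 and 500 nM ZJ-101 (light to dark). Filled points carry the 95% interval of the limma fit, and open points are NFE2L3, shown without one. At 500 nM the points stand at -1.89 for NFE2L3, -1.44 for NFE2L1 and -0.30 for NFE2L2, and the other 5 genes between -0.04 and 0.05.

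The 3 NFE2L genes thus changed place relative to each other. The ratio of NFE2L3 to NFE2L1 normalized counts, a comparison added after the values had been seen, was 0.571 ± 0.0052 in DMSO, 0.587 ± 0.062 at 0.5 nM and 0.568 ± 0.020 at 5 nM (SD, n = 3). It was 0.787 ± 0.059 at 50 nM, where the libraries read 0.757, 0.855 and 0.749, and 0.420 ± 0.025 at 500 nM, where they read 0.446, 0.396 and 0.419. The ratio therefore stood above every DMSO, 0.5 nM and 5 nM library at 50 nM and below all of them at 500 nM. The ratio of NFE2L2 to NFE2L1 was 0.323 ± 0.010 in DMSO, 0.681 ± 0.0015 at 50 nM and 0.715 ± 0.0098 at 500 nM. These ratios are given as a description and the difference between the genes' responses was not tested.

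**Figure D3:**
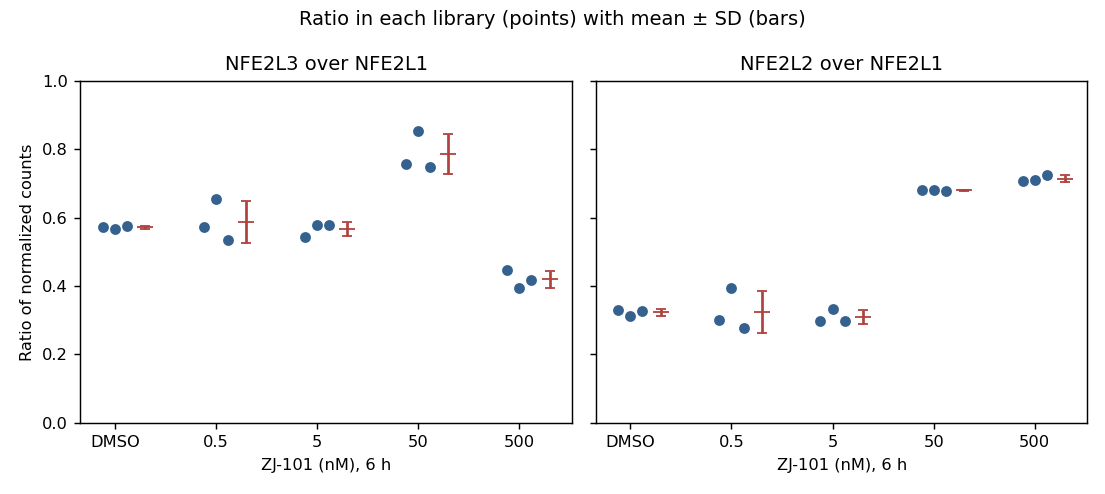
Ratio of normalized counts (vertical axis) of NFE2L3 to NFE2L1 (left) and of NFE2L2 to NFE2L1 (right) against the dose of ZJ-101 (horizontal axis). Points are libraries and bars give the mean ± SD of 3. On the left the 50 nM libraries (0.749 to 0.855) lie highest and the 500 nM libraries (0.396 to 0.446) lowest, and on the right the 50 and 500 nM libraries lie between 0.679 and 0.726, above all others.

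KEAP1, the adaptor that presents NRF2 to a CUL3 ubiquitin ligase, ranged from 1899 to 2201 normalized counts over the 15 libraries and was called at no dose. At 500 nM its log2 difference from DMSO was -0.04 (95% interval -0.14 to 0.06, limma adjusted p = 0.63). BACH1, the heme-sensing repressor of HMOX1, ranged from 568 to 711, with its lowest value in replicate 2 at 0.5 nM. Its log2 difference at 500 nM was -0.02 (95% interval -0.17 to 0.14, limma adjusted p = 0.91).

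The small MAF genes were also called at no dose. MAFF ranged from 968 to 1155, MAFG from 999 to 1173 and MAFK from 494 to 631 normalized counts. Their log2 differences at 500 nM were -0.01 for MAFF (95% interval -0.13 to 0.11), -0.01 for MAFG (95% interval -0.13 to 0.11) and 0.05 for MAFK (95% interval -0.11 to 0.20), with limma adjusted p of 0.91, 0.92 and 0.75. The MAFF libraries at 0.5 nM lay above DMSO without overlap, by less than 1 count at the nearest (log2 difference 0.09, limma adjusted p = 0.48). Over KEAP1, BACH1 and the small MAFs at all 4 doses, the 95% intervals of the difference from DMSO reached from -0.17 to 0.24. Of the MAFK exon bases, 18.1% overlap TMEM184A on the opposite strand, which rose by 0.50 at 500 nM (limma adjusted p = 0.024) at a level of 89.0 ± 8.34 normalized counts in DMSO and 126 ± 4.83 at 500 nM (SD, n = 3).

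All 8 genes had enough reads to be tested, and the calls of the 7 members other than NFE2L3 can be set beside those of all 13561 genes. At 0.5 nM, 0 of 7 were called in limma (1 at an unadjusted p under 0.05, NFE2L2; 0 in edgeR and 0 in DESeq2), where 0.922% of all genes were called lower and 0.251% higher. At 5 nM, 1 of 7 (NFE2L2) was called lower and 0 higher, where 1.71% of all genes were lower and 0.465% higher. At 50 nM, 2 of 7 (NFE2L1 and NFE2L2) were called lower and 0 higher, where 3.71% of all genes were lower and 2.29% higher. At 500 nM, the same 2 of 7 were called lower and 0 higher, where 10.1% of all genes were lower and 7.69% higher. The 0 higher calls at 5, 50 and 500 nM were also 0 in edgeR, in DESeq2 and at an unadjusted p under 0.05. The median log2 difference of the 7 at 500 nM was -0.02, beside 0.00 over all genes. The 4 dose comparisons share the 3 DMSO libraries.

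Between neighboring doses, which use no DMSO library, 0 of the 7 were called in limma from 0.5 to 5 nM (0 at an unadjusted p under 0.05, 0 in edgeR and 0 in DESeq2), where 0.118% of all genes were called. From 5 to 50 nM, 1 of the 7 was called, NFE2L1, which was lower, where 5.01% of all genes were called. From 50 to 500 nM, 0 of the 7 were called in limma (2 at an unadjusted p under 0.05, NFE2L1 and NFE2L2; 0 in edgeR and 0 in DESeq2), where 2.28% of all genes were called. The step from 5 to 50 nM was thus the one between neighboring doses in which NFE2L1 was called.

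Levels can be compared between genes only per length. With reads on the gene scaled to the library's total and to each kilobase of the MANE Select transcript, the reference transcript chosen by GENCODE and RefSeq (the RPKM scale), the order in DMSO was NFE2L1 at 85.0 ± 2.50, NFE2L3 at 62.9 ± 1.27, KEAP1 at 60.0 ± 0.87, NFE2L2 at 54.3 ± 0.65, MAFF at 31.4 ± 0.86, MAFG at 15.1 ± 0.21, MAFK at 12.002 ± 0.53 and BACH1 at 8.55 ± 0.39 (SD, n = 3). No neighbors in this order overlapped between libraries. At 500 nM KEAP1 at 58.4 ± 0.73 stood highest, followed by NFE2L2 at 44.3 ± 1.17. NFE2L1 at 31.3 ± 0.66 and MAFF at 31.2 ± 0.98 overlapped, and NFE2L3 at 17.0 ± 0.66 stood next to MAFG at 15.01 ± 0.27. At 50 nM NFE2L3 at 35.8 ± 2.70 and NFE2L1 at 35.2 ± 0.15 overlapped. The place of NFE2L2 depends on the length used: per kilobase of all its annotated exons merged (14975 bases instead of 2446) its level in DMSO was 8.86 ± 0.11. On that merged length MAFF, at 13.3 ± 0.36, lay below MAFG, at 14.6 ± 0.20, in DMSO. At 500 nM NFE2L1 (25.2 to 26.3) and MAFF (12.8 to 13.7) no longer overlapped, nor at 50 nM did NFE2L3 (29.5 to 33.8) and NFE2L1 (28.8 to 29.1). NFE2L3 (14.2 to 15.4) and MAFG (14.2 to 14.7) overlapped at 500 nM on the merged length.

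Over the 15 libraries, the log2 level of NFE2L3 had a Pearson r of 0.91 with that of NFE2L1, and 171 tested genes had a higher r. With NFE2L2 r was 0.75, with 826 genes higher, and with the other 5 members r lay between -0.13 and 0.35. The genes most like NFE2L3 were HSPA5, the ER lumen HSP70 chaperone (r = 0.988), SOCS3, an inhibitor of cytokine signaling (r = 0.987), CKAP4, an ER membrane protein (r = 0.982), ANOS1, an extracellular matrix protein (r = 0.979), and ITGA6, the integrin alpha-6 subunit (r = 0.978). The most opposite were the cochaperone DNAJB6 (r = -0.976), the orphan receptor GPRC5A (r = -0.971), the cytosolic chaperone HSP90AB1 (r = -0.970), the lipase DAGLB (r = -0.966) and STIP1, which links HSP70 to HSP90 (r = -0.966). These values describe 15 libraries that share doses, DMSO libraries and size factors. HSPA5, whose mean went from 14143 normalized counts in DMSO to 10190.2 at 50 nM and 5439 at 500 nM, differed from DMSO by -0.47 and -1.38 on the log2 scale, and CKAP4 by -1.02 and -1.68.

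Protein-coding genes next to the members were compared in the same way, a choice made after the values had been seen. Around the 8 members and the related gene NFE2 lay 31 neighbors within 50 kb, of which 26 were tested. At 500 nM limma called 3 of the 26, each higher: KRI1 near KEAP1, TMEM184B near MAFF and TMEM184A over MAFK, where 7.69% of all genes were called higher and 10.1% lower. Near NFE2L3, the log2 differences at 500 nM were 0.06 for HNRNPA2B1 and -0.06 for CBX3 (limma adjusted p = 0.33 and 0.50). Near NFE2L1 they were -0.01 for CBX1 and -0.01 for SNX11 (limma adjusted p = 0.92 and 0.96). Among transcripts that carry a member's symbol, MAFG-DT differed by -0.03 at 500 nM (limma adjusted p = 0.93), NFE2L1-DT held 4.06 to 14.9 normalized counts per library and BACH1-AS1 0 to 3.03, too few to be tested.

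**Figure D4:**
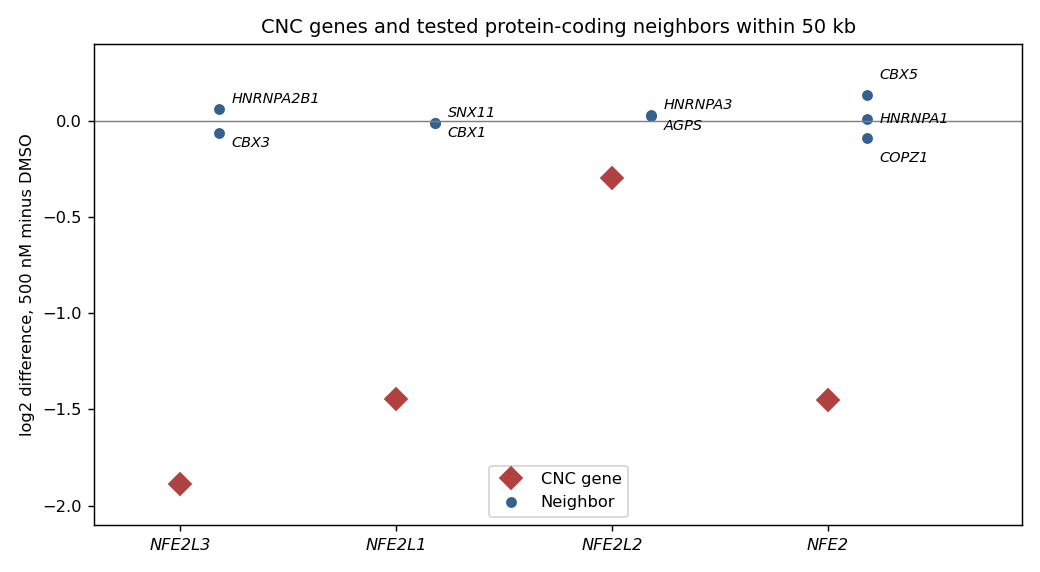
Log2 difference between 500 nM ZJ-101 and DMSO (vertical axis) for 4 CNC genes (diamonds) and their tested protein-coding neighbors within 50 kb (circles, named). The neighbors lie between -0.09 and 0.13, while NFE2L3, NFE2L1 and NFE2 lie below -1.

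The rest of the pathway was followed in 4 gene lists at 500 nM. Of 5 other CNC and MAF factors, 4 had enough reads (MAF did not), 1 fell, 0 rose (also 0 in edgeR, in DESeq2 and at an unadjusted p under 0.05 in limma), and the median log2 difference was -0.19, beside 0.00 over all genes. Of all genes, 10.1% were called lower and 7.69% higher at that dose. NFE2, the founding CNC factor of blood cells, fell by 1.45 (SE 0.28, limma adjusted p = 0.0013), from 36.5, 20.2 and 27.4 in DMSO to 8.15, 8.09 and 12.4 at 500 nM. Its 500 nM libraries did not overlap DMSO but rested on few reads. The NFE2 means at 0.5, 5 and 50 nM were 15.1, 13.5 and 17.2, already below the DMSO mean of 28.0 ± 8.16 (SD, n = 3). None of these 3 lower doses was called (limma adjusted p = 0.17, 0.093 and 0.21). BACH2, which pairs with small MAFs as BACH1 does, had a log2 difference of 0.42 (limma adjusted p = 0.21). The leukocyte marker sum given above was lower at 500 nM too, and its part in NFE2 was not tested.

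Of 16 genes for the release, retrieval and turnover of CNC factors, 2 rose, 1 fell and 13 were not called, with a median of -0.05, a share of calls near that of all genes (7.69% higher and 10.1% lower). SQSTM1, the autophagy receptor p62 that binds KEAP1, rose by 0.29 (limma adjusted p = 2.0e-04), from 5043 ± 255 to 6180.3 ± 37.8 (SD, n = 3). SYVN1, the ER ubiquitin ligase HRD1, rose by 0.29 (limma adjusted p = 2.9e-04), from 963 ± 32.5 to 1179 ± 27.5. SEL1L, the partner of HRD1, fell by 0.28 (limma adjusted p = 0.0053), from 2930.5 ± 29.5 to 2416 ± 100.2. DDI2, the protease that cleaves NFE2L1, NGLY1, which removes its glycans, and VCP, which extracts it from the membrane, had log2 differences of 0.21, 0.05 and -0.07 (limma adjusted p = 0.16, 0.68 and 0.33). At 50 nM, SQSTM1 and SYVN1 had also risen, by 0.18 and 0.17 (limma adjusted p = 0.029 and 0.041), whereas DESeq2 called 1 gene of the list higher at that dose.

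Proteasome genes are known targets of NFE2L1. Of 34, 1 rose, 0 fell (6 at an unadjusted p under 0.05; 0 in edgeR and 0 in DESeq2), and the median log2 difference was -0.05, beside 0.00 over all genes. Of all genes, 7.69% were called higher and 10.1% lower at 500 nM. The 33 genes not called lay between -0.14 and 0.13. The exception, PSMB3, rose by 2.18 (limma adjusted p = 0.013) on uneven values. It read 83.6, 88.0 and 87.3 in DMSO and 734, 191 and 441 at 500 nM, and 782 in 5 nM replicate 1 beside 82.9 and 83.4 in the other 5 nM libraries. Without 500 nM replicate 1 its adjusted p was 0.077 in limma. In DMSO PSMB3 averaged 86.3, against 2664 to 3467 for the other listed beta subunits. PSMA1, PSMA2 and PSMA6 (201.8, 50.7 and 54.5) likewise stood far below the other listed alpha subunits (at least 2223). Whether reads of these genes were lost in the counting was not tested. At 50 nM 0 of the 34 were called in limma (1 lower and 0 higher at an unadjusted p under 0.05; 0 in edgeR and 0 in DESeq2). At that dose 2.29% of all genes were called higher and 3.71% lower.

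Of 30 target genes of NRF2 and BACH1, 2 rose, 1 fell and 27 were not called at 500 nM, with a median of -0.01, where 7.69% of all genes were called higher and 10.1% lower. SLC7A11, the cystine transporter subunit, rose by 0.43 (limma adjusted p = 3.2e-04), from 511, 475 and 491 in DMSO to 681, 694 and 616. ABCC3, an efflux transporter, rose by 0.36 (limma adjusted p = 0.0017), and UGDH, which makes UDP-glucuronate, fell by 0.23 (limma adjusted p = 0.0012). At 50 nM SLC7A11 had risen by 0.37 and UGDH had fallen by 0.16 (limma adjusted p = 0.0029 and 0.040), and at 0.5 nM FTL, a ferritin chain, rose by 0.25 (limma adjusted p = 0.045). NQO1, HMOX1 and GCLM, much used as readouts of NRF2 and BACH1, had log2 differences of -0.02, 0.20 and -0.17 at 500 nM (limma adjusted p = 0.84, 0.15 and 0.054). SRXN1 had one of -0.81 with an adjusted p of 0.12 in limma, from 78.8 ± 6.71 in DMSO to 52.2 ± 33.1 at 500 nM (SD, n = 3).

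**Figure D5:**
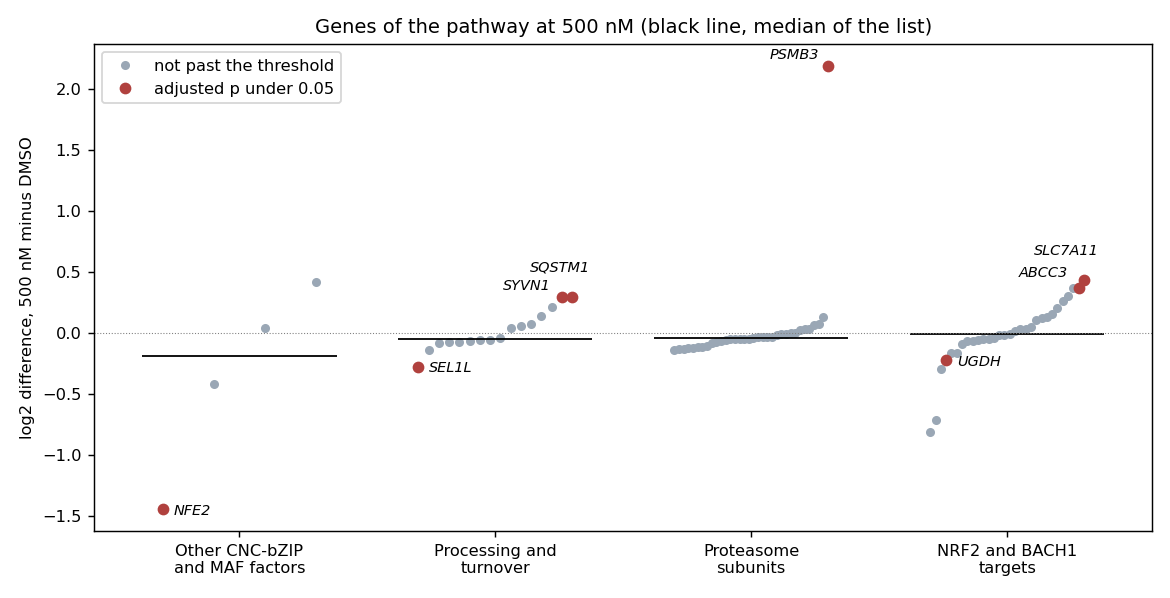
Log2 difference between 500 nM ZJ-101 and DMSO (vertical axis) for the tested genes of the 4 lists (horizontal axis), sorted within each list. Red points have an adjusted p under 0.05 in limma, grey points do not, and black lines are the list medians (-0.19, -0.05, -0.05 and -0.01). Most genes of the last 3 lists lie close to 0, and PSMB3 stands alone at 2.18.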

How the data were processed

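RNA of MDA-MB-231 dishes was taken after 6 h, selected for poly(A) and sequenced as paired-end reads. The authors aligned the reads to hg38 with HISAT2, counted them per GENCODE gene with htseq-count and scaled them with DESeq2. The GENCODE release and strand setting are not given in the sources used here. The deposited values are a signal, read counts divided by the size factor of each library. Whole reads were recovered from the value steps (100% of values within 0.001 of a whole read), giving size factors from 0.916 to 1.13.

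Groups came from the labels. Genes with a mean normalized count of at least 10 (13561) were fitted with limma 3.58.1 (trend) on log2(normalized count + 1) over all 15 libraries, as two-sided tests with Benjamini-Hochberg adjustment over all genes tested and a threshold of 0.05. Recovered reads were tested with edgeR 4.0.16 (at 500 nM, 1365 genes lower and 1067 higher) and DESeq2 1.42.0 as alternatives, and other pseudocounts, filters, scalings, a replicate block, the compared groups alone and each library left out were tried. The fit was tested on simulated data. Overlaps and lengths came from GENCODE 44 on GRCh38, and the pseudogene was aligned with minimap2.

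The members and lists were chosen with earlier results of these data known, and 1 gene taken off a list is not reported here. Named were the 8 members, up to 4 called genes with the largest rise and 4 with the largest fall per list at 500 nM, the 5 genes most like and 5 most opposite to NFE2L3, and overlapping or related transcripts. DDI2, NGLY1, VCP, BACH2, FTL, NQO1, HMOX1, GCLM, SRXN1 and the neighbors of members were added after their values had been seen.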

Additional observations from a re-analysis of the deposited data

How the results depend on the processing

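The counts of members called at 50 nM (2) and at 500 nM (2) and the call of NFE2L1 from 5 to 50 nM held in all 25 alternatives, and the log2 difference of NFE2L3 at 500 nM ranged from -1.92 to -1.86 over 19 alternatives. At 0.5 nM the count of members called went from 0 to 1 without 0.5 nM replicate 2 (NFE2L2, limma adjusted p = 0.042), a range of 0 to 1 with 1 library left out. Without that library 107 of all genes were called lower and 47 higher, against 125 and 34 in the fit of all libraries. At 5 nM the count of members called was 0 with no filter, 2 with the compared groups alone (NFE2L1 added, limma adjusted p = 0.040) and 0 to 1 with 1 library left out, being 0 without any of DMSO replicates 1, 2 and 3 and 5 nM replicates 1 and 3. Of all genes, 232 were called lower and 63 higher in the fit of all libraries, and 531 and 315 with the compared groups alone. With no filter the numbers were 161 and 44. They were 88 and 25, 103 and 28, and 117 and 30 without DMSO replicates 1, 2 and 3. Without 5 nM replicates 1 and 3 they were 106 and 35, and 172 and 38. Without 5 nM replicate 2 they were 97 and 24, and the count of members stayed at 1. From 50 to 500 nM the count of members called was 1 with the compared groups alone and 0 to 1 with 1 library left out, being 1 without 0.5 nM replicate 2. Calls over all genes in these settings were not counted for this step. Of the other CNC and MAF factors, 0 were called among genes with a mean of at least 50, a filter that NFE2 did not pass, and 1 in the other 24 alternatives. With the compared groups alone, 5 genes of processing and turnover (3 in the fit of all libraries), 5 proteasome genes (1) and 7 target genes of NRF2 and BACH1 (3) were called. Of all 13561 genes, that setting called 1742 lower and 1552 higher at 500 nM, against 1366 and 1043 in the fit of all libraries. Target genes numbered 6 at a mean of at least 50, where 1339 of 11055 genes tested were called lower and 1068 higher. With 1 library left out, the counts were 0 to 4 for proteasome genes (2 without 0.5 nM replicate 1, 4 without 0.5 nM replicate 2, 0 without 500 nM replicate 1, 2 without 500 nM replicate 3) and 3 to 8 for target genes (8 without 0.5 nM replicate 2, 5 without 0.5 nM replicate 3, 5 without 500 nM replicate 1). Of all genes, 1348 were then called lower and 1030 higher without 0.5 nM replicate 1. The numbers were 1654 and 1443 without 0.5 nM replicate 2, and 1414 and 1125 without 0.5 nM replicate 3. They were 1133 and 778 without 500 nM replicate 1, and 1106 and 828 without 500 nM replicate 3. The cause of these changes was not tested. The deviations of same-numbered libraries of different groups had r from -0.085 to 0.096 over 30 pairs, 0 over 0.1. Differently numbered pairs were not set beside them, so whether a number marks a shared batch cannot be told. A replicate block gave 2 proteasome genes and 5 target genes, and left the counts of members at 0, 1, 2 and 2 at the 4 doses. With that block, 1390 of all genes were called lower and 1116 higher at 500 nM. With 3 dishes a group, genes of few reads, such as NFE2, were measured with the least precision.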
